A study of Caenorhabditis elegans with 2 samples.

Results

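Cytosolic ribosomal proteins are the protein parts of the ribosome, the machine that translates mRNA in the cytoplasm. They sit in a large subunit, which joins amino acids, and a small subunit, which reads the mRNA, and each subunit needs nearly all of its proteins in matched amounts. Their genes are scattered over the genome and are among the most actively transcribed in growing animals. In C. elegans many such genes are trans-spliced to a leader RNA, several carry small nucleolar RNA (snoRNA) genes in their introns, and some lie downstream in operons.

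The genes were taken by symbol from the Ensembl annotation of build WBcel235 (ce11). They are the protein-coding genes named rpl- or rps- with a digit, together with rla-0, rla-1 and rla-2 of the ribosomal stalk and ubl-1, which encodes a ubiquitin-like protein fused to small subunit protein S27a. The rule took 82 of 19973 protein-coding genes of the nuclear chromosomes, 50 for the large subunit and 32 for the small. It did not take ubq-2, which encodes a ubiquitin fused to a large subunit protein, nor rack-1, a small subunit scaffold gene.

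CEH-90, a homeobox protein, was profiled by ChIP-seq, the sequencing of immunoprecipitated chromatin, in whole hermaphrodite L1 larvae of strain OP210. The strain carries unc-119(ed3) III and the transgene wgIs210, a stable fusion of CEH-90 to a GFP-FLAG tag at its C terminus, which was recovered with an anti-GFP antibody. Larvae were starved after bleaching to synchronize them and taken 6 hours later. The labels give 1 group of 2 biological replicates, with no other condition and no account of the cultures, the transgene's promoter or the cells that express the fusion. Peaks are ordered by the authors' own signal per peak, rank 1 being the strongest, and read depth is unknown because the lists hold no read counts.

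The replicate lists held 23796 and 30000 peaks, background included, and the pooled list 30000. The optimal list after thresholding on the irreproducible discovery rate (IDR), called the IDR list here, held the 765 strongest pooled peaks. Because worms lacking the fusion were not analysed here, binding by CEH-90 cannot be told apart from recovery common to active promoters. At ceh-90 itself the best pooled summit ranked 2486, and the gene had no IDR summit.

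A gene was given a site where an IDR summit fell no more than 1000 bp upstream or 200 bp downstream of any of its annotated starts. Sites lay at 32 of the 82 ribosomal protein genes, or 39.0% (exact binomial 95% interval 28.4 to 50.4%). Among all protein-coding genes the share was 4.46%, that is 891 of 19973. When a summit counted for its nearest protein-coding start alone, 18 ribosomal genes (22%) and 2.98% of all genes had one. The 32 genes were served by 30 peaks, since rps-14 and rpl-36 shared a peak, as did rps-10 and rpl-24.1. Both are pairs that face away from each other across a common upstream region. Intervals here cover counting error over genes or peaks only, and genes that share a peak are not independent. Members and lists were chosen with earlier results of these data known, so no test of the excess is given.

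The pooled list, whose top is the IDR list, was read in the same way. In it, 74 of the 82 genes had a summit in the window (90.2%), against 41.4% of all protein-coding genes. Among genes without a site, a weaker summit was at 42 of 50 ribosomal genes (84.0%) and at 7345 of 19032 others (38.6%). The pooled list includes background, and only 830 of its 30000 peaks had q of 0.05 or less. With that limit 32 ribosomal genes and 4.74% of all protein-coding genes had a summit. The weaker summits at ribosomal genes thus did not pass it and are not counted as sites. The best summit of those 74 genes had a median rank of 1178.5, and that of the 8278 protein-coding genes with one had a median rank of 9250.5. With the nearest start alone the ribosomal median was 2013. In the single replicates, medians were again taken over genes with a summit. They were 789 for 69 ribosomal genes and 7459 for 7320 protein-coding genes in replicate 1. In replicate 2 they were 1171 for 73 and 9811 for 8400. The replicate lists differ in length, so ranks are compared within a list. The ribosomal medians stood nearer the top of each list. Of the 30 ribosomal peaks in the IDR list, 0 ranked in the first 20, 2 in the first 100 and 18 in the first 382.

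**Figure D1:**
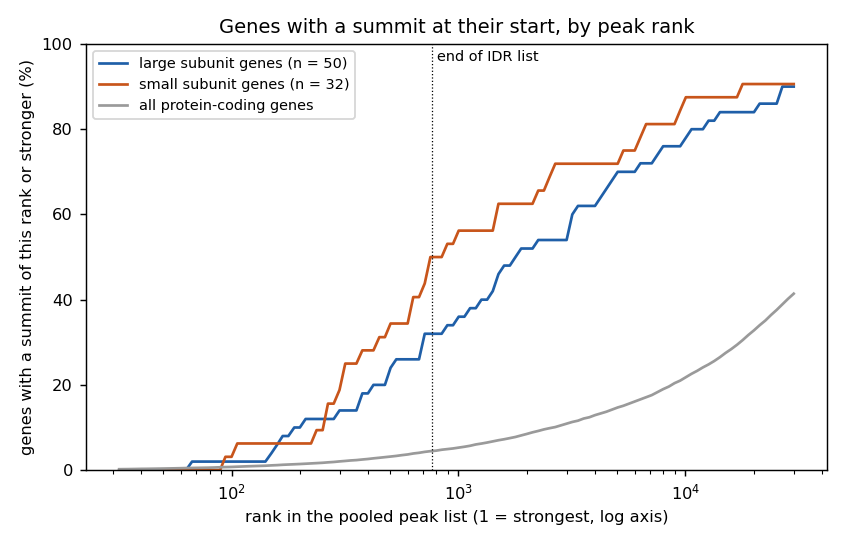
Share of genes with a pooled-list summit at least as strong as the rank on the horizontal axis (log scale), for 50 large subunit genes, 32 small subunit genes and all protein-coding genes. At the end of the IDR list (dotted line, rank 765) the shares are 32.0%, 50% and 4.46%, an order of the subunits that reverses to 24.0% and 18.8% with the nearest start alone.

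The strongest site belonged to rpl-43, for protein eL43 of the large subunit, on chromosome II (peak 14154406 to 14154675, summit 14154549). Its signal was 653 in the IDR list at rank 65, 347 in replicate 1 at rank 67 and 300 in replicate 2 at rank 68. The summit lay 745 bp upstream of rpl-43 in intergenic sequence, but only 176 bp upstream of the divergent gene Y48B6A.1.

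The next was that of rps-26, encoding a protein beside the mRNA exit of the small subunit, on chromosome I (14759403 to 14759645). Its signal was 484 in the IDR list at rank 92, 224 in replicate 1 at rank 108 and 264 in replicate 2 at rank 83. The summit at 14759509 was at -421 bp from rps-26 (negative positions are upstream) and at -36 bp from the divergent gene tmem-107. Then came rps-23, for the small subunit protein of the decoding centre, on chromosome IV (12391216 to 12391449). Its signal was 452 at rank 102, 223 in replicate 1 at rank 109 and 220 in replicate 2 at rank 99. That summit, at -283 bp, was slightly closer to dpm-3, at -251 bp, which encodes a subunit of dolichol-phosphate mannose synthase. The 3 strongest ribosomal sites each lay nearer to another gene's start.

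Next in rank stood 3 sites nearest to the ribosomal gene itself. The site of rpl-15, a large subunit gene with a pair of snoRNA genes in its introns, spanned 654714 to 655143 on chromosome IV, at -353 bp. Its signal was 292 at rank 143, 139 in replicate 1 at rank 144 and 135 in replicate 2 at rank 156. On chromosome III, rpl-35, for a large subunit protein (7854623 to 7854764), had a signal of 268 at rank 155, 148 in replicate 1 at rank 137 and 119 in replicate 2 at rank 173. No other protein-coding start was in its window, and the summit was at -461 bp. Also on III, rpl-3, which encodes a protein close to the peptidyl transferase centre, had a site at 3867485 to 3867660, at -287 bp. Its signal was 254 at rank 160, 115 in replicate 1 at rank 161 and 136 in replicate 2 at rank 153. At these genes both replicates ranked the site close to its place in the IDR list.

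The rest of the 10 strongest genes were rpl-20, rpl-12, rps-12 and rps-28. On chromosome IV, rpl-20 (4749850 to 4750279), at -287 bp, had a signal of 212 at rank 182, 100 in replicate 1 at rank 188 and 116 in replicate 2 at rank 179. The start of the divergent gene Y17G9B.5 was nearer, at -175 bp. Also on IV, rpl-12 (13240477 to 13240906), for a protein at the base of the stalk, had a signal of 182 at rank 212, 74.2 in replicate 1 at rank 240 and 89.3 in replicate 2 at rank 226. It was the site closest to its ribosomal gene, at -41 bp, and the divergent gene there is lin-54, for the DNA-binding subunit of the DREAM complex, at -352 bp. On III, rps-12 (5678911 to 5679340), at -172 bp, had a signal of 172 at rank 225, 84.6 in replicate 1 at rank 213 and 85.0 in replicate 2 at rank 244. The start of ska-3, a gene of a kinetochore complex, was nearer at -121 bp. The site of rps-28 on IV (1659018 to 1659447), at -458 bp, had a signal of 154 at rank 253, 73.7 in replicate 1 at rank 242 and 82.5 in replicate 2 at rank 249. Below it stood rps-1, with a signal of 148 at rank 261 and replicate ranks of 254 and 271, whose summit fell within the annotated noncoding RNA gene F56F3.10.

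The other 21 genes with a site had signals from 72.2 to 133. From strongest to weakest they were rps-20, rpl-28, rps-19, rps-4, rpl-29, rpl-24.2, rps-18, rpl-7A, rps-24, rpl-36 with rps-14, rpl-5, rpl-6, rps-0, rps-29, rpl-41.2, rpl-24.1 with rps-10, rpl-14, rps-17 and rps-13. They include rpl-5, which encodes the carrier of 5S rRNA, and rps-0, for the protein known in mammals as RPSA. The replicates diverged more at these sites. At rps-0 the summit ranked 1820 in replicate 1 and 611 in replicate 2, and at rps-13 it ranked 611 and 1984. The site of rps-29, ranked 621 in the IDR list, had rank 364 in replicate 1 and no summit within 100 bp in replicate 2.

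**Figure D2:**
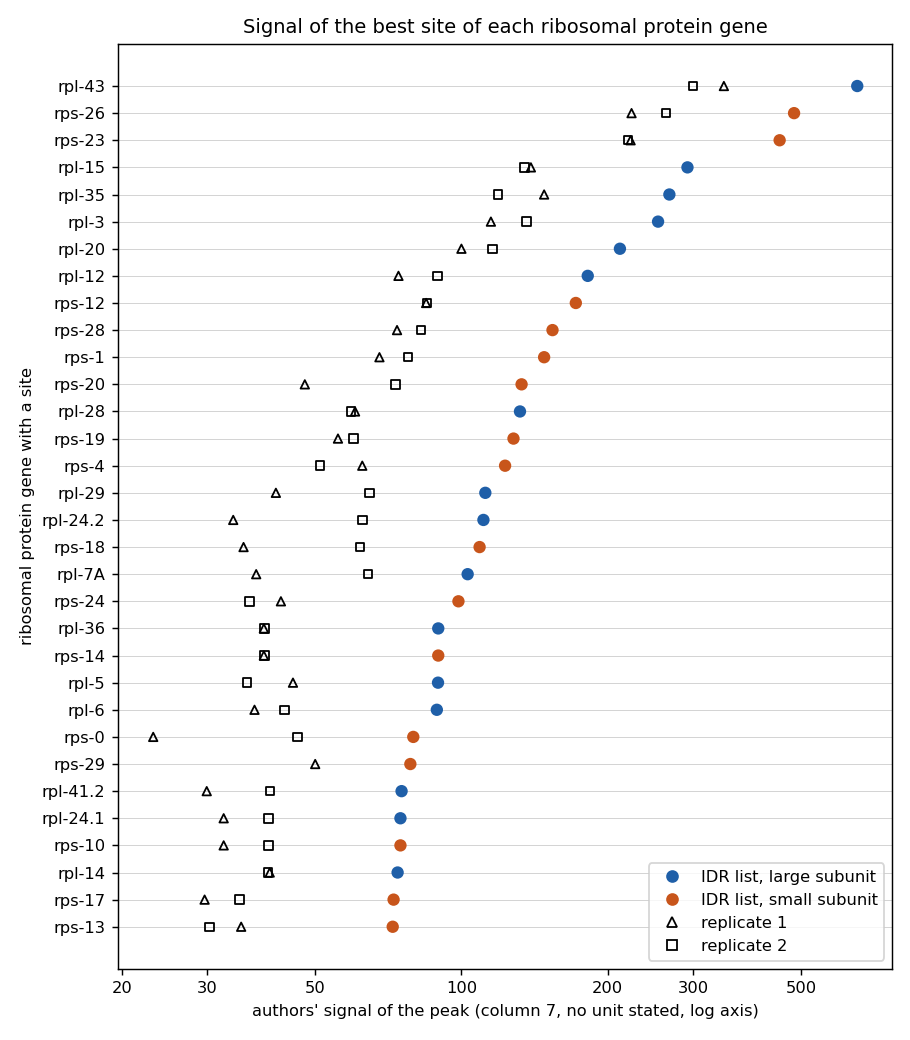
Authors' signal (log axis) of the site of each of the 32 ribosomal protein genes in the IDR list (filled circles, coloured by subunit), replicate 1 (triangles) and replicate 2 (squares), ordered by IDR rank. Values are compared within a list, since lists scale differently. The replicate signals broadly fall with the IDR signal, being 347 and 300 at rpl-43 and 35.2 and 30.3 at rps-13. Among the weaker sites they depart from its order, as in replicate 1 at rps-0 (23.2) and rps-29 (50).

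The replicates shared the ribosomal peaks about as often as IDR peaks at large. A summit within 100 bp among the 765 strongest peaks of both replicates was found for 20 of the 30 ribosomal peaks (66.7%), against 65.5% of all IDR peaks. By rank it was found for 7 of 7 ribosomal peaks at ranks 1 to 191, against 99.5% of all IDR peaks there, and for 11 of 11 at ranks 192 to 382, against 93.2%. Further down it was found for 2 of 5 at ranks 383 to 573, against 57.1%, and for 0 of 7 at ranks 574 to 765, against 12.5%. In the full replicate lists, 29 of 30 had a summit in both. The median shift of a matched summit was 7 bp in replicate 1 and 6 bp in replicate 2. Counted by gene in each list's 765 strongest peaks, 34 of the 82 genes had a summit in replicate 1 and 23 in replicate 2, and 21 in both. Over all protein-coding genes the shares were 4.42% and 4.35%, and the share in both was not counted. Of the 21 genes, 20 had a site, the exception being rpl-11.2 (replicate ranks 555 and 761). In all, 6 of the 50 ribosomal genes without a site had such a summit in at least 1 replicate. The matching share of other genes was not counted, so nothing is read from this count or from the 21. The IDR list was made from both replicates, so the sharing of its peaks is agreement and not independent support.

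**Figure D3:**
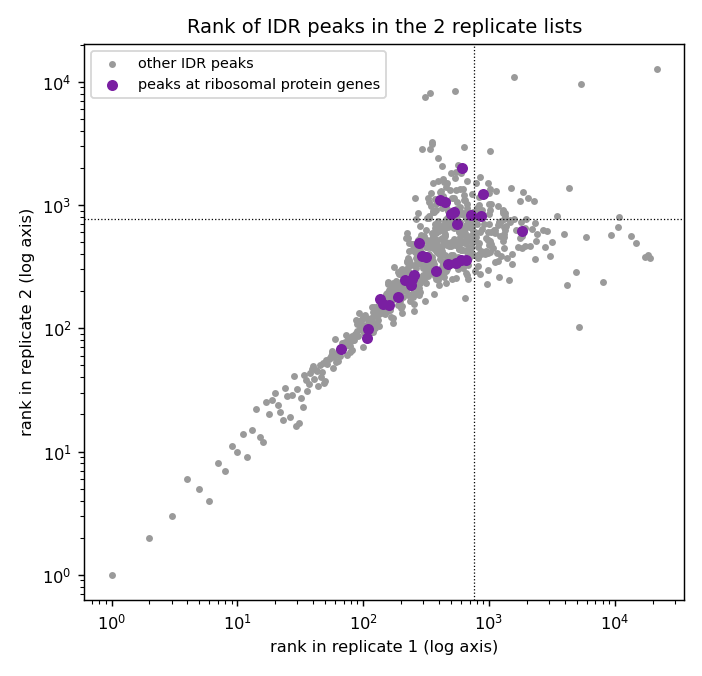
Rank of each IDR peak in replicate 1 and replicate 2 (log axes), with peaks at ribosomal protein genes in purple and dotted lines at rank 765. Of the 30 ribosomal peaks, 20 lie left of the one line and below the other, and 1 has no partner in replicate 2 and is not drawn.

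Across the 32 genes the median position was -308 bp (quartiles -377 and -256), against -216 bp (quartiles -404 and -122) for the 859 other protein-coding genes with a site. Between 400 and 200 bp upstream lay 21 of the 32 ribosomal sites (65.6%) and 242 of the 859 others (28.2%). Closer than that were 4 ribosomal sites and 42.8% of the others. This band was not among the planned measures, and it encloses both ribosomal quartiles. A large ribosomal share in it therefore follows from its choice and is no separate finding. Downstream of the start were 0 of the 32 ribosomal sites and 3.73% of the others, shares that 32 genes cannot separate. Where the ribosomal gene had the nearest protein-coding start, in 18 genes, the median was -292 bp, against -171 bp for the other peaks measured to their nearest start. Annotated starts of trans-spliced genes can lie downstream of the true start, and the part of this in the positions was not tested. Of the 30 summits, 24 were intergenic, 3 in noncoding RNA genes, 2 in untranslated exons of sec-61.A and snt-2, 1 in an intron of C03D6.1 and 0 in coding exons.

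**Figure D4:**
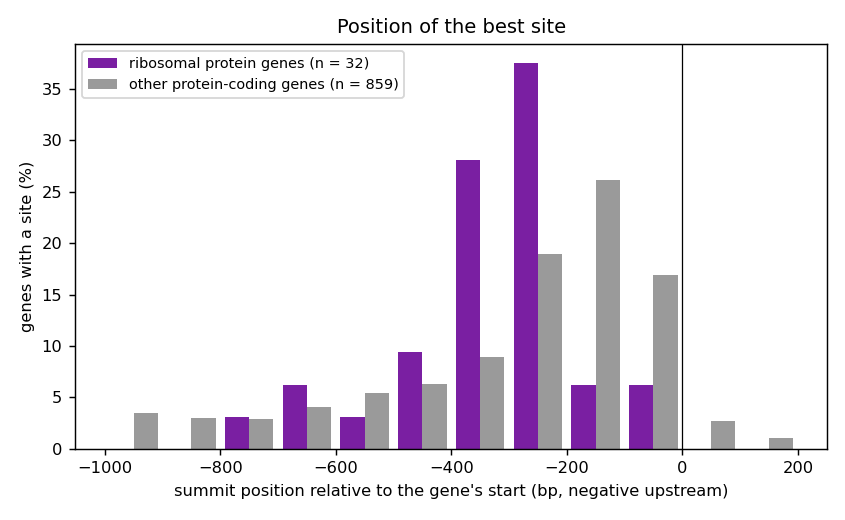
Position of the best site relative to the gene's start in bins of 100 bp, as percent of 32 ribosomal protein genes (purple) and of 859 other protein-coding genes with a site (grey). The ribosomal bars peak between 400 and 200 bp upstream, and the others within 200 bp.

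Many of the peaks stood between a ribosomal gene and a neighbour. Another protein-coding start was in the window at 21 of the 30 peaks (70.0%), against 267 of the 579 other IDR peaks at protein-coding starts (46.1%). The ribosomal peaks were reached through genes, so a peak with more starts had more chances to be among them. These shares are therefore not like for like, and no trait of ribosomal sites is read from them. For 14 of the 32 genes that other start was the nearer one. Genes so placed include rps-18 beside sec-61.A, for the protein translocation channel, whose start lay 103 bp before the summit, rps-19 beside hsr-9, at -186 bp, and rps-20 beside ekl-4, at -152 bp. Others were rps-29 beside snt-2, rps-0 beside rbg-3, rps-13 beside nfx-1, and rpl-28, whose divergent neighbour mrpl-49 encodes a mitochondrial ribosomal protein and lay at -170 bp. Ribosomal genes with a divergent upstream neighbour had a site in 24 of 55 cases (43.6%), and those with a tandem neighbour in 8 of 27 (29.6%). Over all protein-coding genes the shares were 7.01% and 2.34%.

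The gap to the upstream gene was 253 bp or more at every ribosomal gene with a site, the smallest being that of rpl-7A. Only 5 ribosomal genes had smaller gaps, so nothing is read from their lack of a site, which this limit fixes. They were rpl-25.1, rla-1, rpl-16, rps-16 and rpl-27, each 97 to 119 bp behind a gene on the same strand. Of all protein-coding genes closer than 253 bp behind such a gene, 64 of 2226 had a site (2.88%). For rps-16 the upstream gene is fib-1, encoding the nucleolar methyltransferase fibrillarin, which had a site of rank 196. The genes upstream of the other 4, glit-1, Y37E3.8, lias-1 and C53H9.2, had none.

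Ribosomal genes that host snoRNA genes had sites in 9 of 14 cases (64.3%, interval 35.1 to 87.2%), and the others in 23 of 68 (33.8%, interval 22.8 to 46.3%). The intervals overlap. Among other protein-coding genes that host snoRNAs, 22 of 178 had a site (12.4%). The summit was in the window of a snoRNA gene's start at 9 of the 30 peaks, against 13 of the 579 other peaks at protein-coding starts (2.25%). Hosts were 14 of the 82 ribosomal genes and 178 of the other protein-coding genes, out of 19973 in all. The contrast between peaks therefore partly restates which genes host snoRNAs. The hosts with a site were rps-23, rpl-15, rps-12, rps-4, rpl-7A, rpl-6, rps-29, rpl-24.1 and rps-13. They do not match the 9 peaks fully. The rps-4 peak had no snoRNA start in its window, and the rps-26 peak had one although rps-26 hosts none.

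Between the subunits, sites were at 16 of 32 small subunit genes (50%, interval 31.9 to 68.1%) and 16 of 50 large subunit genes (32.0%, interval 19.5 to 46.7%). The intervals overlap, and the order turned round when a summit counted for the nearest protein-coding start alone, with 6 small subunit genes (18.8%) and 12 large (24.0%). In each subunit 9 of the 16 sites ranked in the first 382. Median signal was 116 for the small subunit and 112 for the large, and median position -301 bp and -314 bp. By pooled list the shares were 90.6% and 90%, and median pooled ranks 733 and 1472.

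By chromosome, ribosomal genes had sites at 9 of 25 on I, 2 of 10 on II, 10 of 19 on III, 10 of 18 on IV, 1 of 8 on V and 0 of 2 on X. The shares of all protein-coding genes were 6.39%, 5.04%, 7.99%, 4.72%, 2.70% and 1.17%.

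Of the 50 genes without a site, the 5 strongest in the pooled list were rpl-21 (rank 862), rps-21 (890), rps-27 (964), rpl-31 (999) and rla-0 (1113), which encodes the stalk protein P0. Just inside the IDR list were rps-17 at 733 and rps-13 at 738. Signals passed the limit without a step, from 72.2 at rps-13 to 67.7 at rpl-21. At rpl-31 the replicates ranked 4120 and 994.

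The other pooled summits ran from rpl-11.2 at rank 1244 to rpl-37 at 26109. Between them were rpl-9, rps-30 and rpl-39, which share a summit of rank 1451, rpl-36.A, rps-15, rpl-25.2, rpl-38, rpl-33, rpl-23, rps-5, rps-8, ubl-1, rpl-1, rpl-41.1, rpl-4, rpl-19, rpl-22, rpl-18, rpl-2, rpl-32, rps-22, rpl-26, rps-11, rps-3, rla-2, rpl-13, rps-25, rps-7, rpl-30, rpl-11.1, rpl-7, rpl-27, rps-9, rpl-10 and rpl-17. No pooled summit was in the window of 8 genes, namely rla-1, rpl-16, rpl-25.1, rpl-34, rpl-42, rps-2, rps-6 and rps-16.

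Gene copies could be set side by side. In the pooled list rpl-41.2 ranked 677 and rpl-41.1, upstream of it on the same chromosome, 3152. The replicates ordered this pair in opposite ways, with rpl-41.2 at 870 and rpl-41.1 at 678 in replicate 1, and at 821 and 9111 in replicate 2. For rpl-11, whose protein contacts 5S rRNA, rpl-11.2 ranked 1244 and rpl-11.1 ranked 10285, in the same order as in replicate 1 (555 and 7824) and replicate 2 (761 and 23245). Of the rpl-24 pair, rpl-24.2 had a site of rank 363 (651 and 355 in the replicates) and rpl-24.1 of rank 684 (722 and 836), although rpl-24.2 resembles a ribosome assembly factor more than a ribosomal protein. How reads from near-identical copies were assigned is not given here, so differences between copies are uncertain.

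The DNA within 50 bp of the summits was searched for short words on either strand. An earlier analysis of these same peaks found 5 words of 6 bases at the IDR summits, so they are no independent evidence here. They overlap in part, and among the 30 ribosomal peaks GGCCAC was at 1, GGCCTA at 4, CGGCCA at 3, CTAGGC at 2 and ACGCGC at 1. At least 1 of them was at 6 of the 30 (20%), against 251 of 579 other IDR peaks at protein-coding starts (43.4%). These shares depended on the window: within 25 bp of the summit the words were at 2 of the 30 against 32.8%, and within 100 bp at 13 of the 30 against 51.8%. They also depended on the replicate. Within 50 bp, replicate 2 alone gave 7 of 23 ribosomal peaks against 39%, and replicate 1 alone 6 of 32 against 45%. The share was 6.97% for windows of 50 bp on either side of a point 308 bp upstream of every protein-coding gene. The ribosomal peaks with such a word were those of rpl-43, rps-26, rps-23 and rpl-15, which are the 4 strongest, and of rpl-28 and rps-13.

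The words become rarer down the list, so shares were also set side by side by rank. They were 4 of 7 against 77.7% in ranks 1 to 191, and 1 of 11 against 37.5% in ranks 192 to 382. Below that they were 0 of 5 against 29.7% in ranks 383 to 573, and 1 of 7 against 16.4% in ranks 574 to 765. The exact 95% intervals overlapped in each of these 4 classes, from 0.23 to 41.3% against 29.6 to 45.9% in ranks 192 to 382. TAAT, the core bound by many homeodomains, was at 46.7% of the ribosomal summits, 50.8% of the other peaks at starts and 68% of the promoter windows.

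Other words recurred at the ribosomal sites. Picked on these 30 peaks after seeing them, as 7-base words in at least 6 peaks and at over 3 times the share of the other peaks at starts, they were ACACTCG at 7 peaks, TACCGTA at 7, ATTTACG at 6 and CGCTACG at 6. Over all promoter windows their shares were 0.546%, 1.55%, 1.58% and 0.305%. Their excess over the other peaks is therefore fixed by the choice and is no finding. At least 1 was at 17 of the 30 ribosomal peaks (56.7%), at 8.12% of the other peaks at starts and at 3.76% of the promoter windows. Within 25 bp of the summit they were at 11 of the 30. The best pooled summits of ribosomal genes without a site did not enter the choice. There, 7 of 41 held such a word (17.1%), against 3.70% of the corresponding summits of other genes. The words did not contribute alike: ATTTACG was at 4, ACACTCG at 2, TACCGTA at 2 and CGCTACG at 0. The shares at other genes were 1.76%, 0.48%, 1.36% and 0.356%. These counts are too small to say that the 4 words recur as a set. Mean GC content was 39% in the 41 windows and 34.1% in those of the other genes. Its part in the word shares was not tested. Neither kind of word was at 11 of the 30 peaks. Mean GC content within 50 bp of the summit was 47.0% ± 7.38 (SD over 30 peaks) against 43.6% ± 8.89 (579 peaks).

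**Figure D5:**
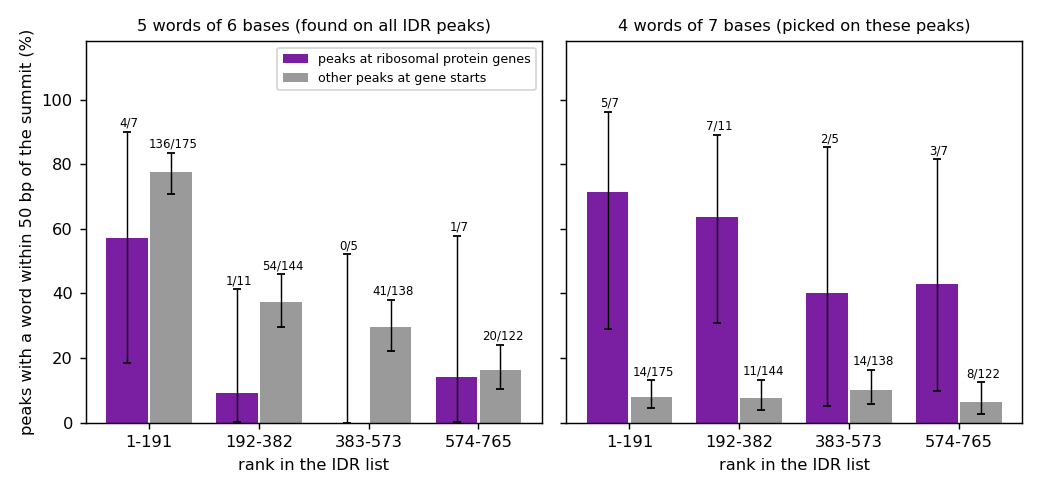
Percent of peaks with at least 1 of 5 words of 6 bases (left) or of 4 words of 7 bases (right) within 50 bp of the summit, by rank in the IDR list, for ribosomal peaks (purple) and other peaks at protein-coding starts (grey). Bars carry exact 95% binomial intervals and counts above them. On the left the ribosomal share falls to 1 of 11 in ranks 192 to 382, and on the right the words were picked on the purple peaks.

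The sequences show these words at single sites. Each is the summit with 50 bases on either side, from the RefSeq copy of WBcel235, written 5′ to 3′ along the ribosomal gene's strand, with capitals for any of the 9 words on either strand. Those of rpl-15 (chrIV:654879-654979, minus strand), rpl-35 (chrIII:7854623-7854723, plus), rpl-3 (chrIII:3867517-3867617, plus) and rpl-12 (chrIV:13240642-13240742, minus) are the 4 strongest whose nearest protein-coding start is ribosomal. The others were picked for their words: rps-23 (chrIV:12391286-12391386, minus) holds both kinds, rpl-20 (chrIV:4750015-4750115, minus) holds 3 of the 7-base words, and rps-14 (chrIII:7179822-7179922, minus) is the summit shared with rpl-36.
rps-23: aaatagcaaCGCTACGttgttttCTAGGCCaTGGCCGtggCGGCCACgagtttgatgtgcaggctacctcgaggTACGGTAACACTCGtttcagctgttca
rpl-15: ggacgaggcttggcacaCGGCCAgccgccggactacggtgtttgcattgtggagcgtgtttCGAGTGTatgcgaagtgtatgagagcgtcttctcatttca
rpl-35: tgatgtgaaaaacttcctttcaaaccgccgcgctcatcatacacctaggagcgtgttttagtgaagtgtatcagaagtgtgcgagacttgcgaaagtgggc
rpl-3: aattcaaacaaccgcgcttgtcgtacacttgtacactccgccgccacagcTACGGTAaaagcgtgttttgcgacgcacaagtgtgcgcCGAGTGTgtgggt
rpl-20: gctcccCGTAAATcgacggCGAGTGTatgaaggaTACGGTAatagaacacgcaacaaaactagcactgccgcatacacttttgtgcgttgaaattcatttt
rpl-12: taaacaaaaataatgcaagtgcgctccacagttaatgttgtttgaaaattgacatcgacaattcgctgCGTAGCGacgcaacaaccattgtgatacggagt
rps-14: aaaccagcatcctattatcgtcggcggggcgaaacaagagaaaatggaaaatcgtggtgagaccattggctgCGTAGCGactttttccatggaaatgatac
In rps-23 the GGCC words crowd the left part of the window, while TACCGTA, on the other strand, runs straight into ACACTCG on the right. The window of rpl-15 has 1 word of each kind, those of rpl-3 and rpl-20 have no GGCC word but 2 and 3 of the 7-base words, and rpl-12 and rps-14 share CGCTACG, read on the other strand. No word of either kind is in the rpl-35 window. A match describes letters and is not evidence of a factor's binding.

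Other genes of translation were counted in the same way. Of 31 ribosome biogenesis genes matched from a list of 34, 7 had a site (22.6%), against 4.46% of all protein-coding genes. They were nol-56 (rank 185) and nol-58 (416), which encode core proteins of the snoRNA particles that guide rRNA methylation, fib-1 (196), nol-16 (254), rbd-1 (257), larp-1 (330), and rpoa-12 (564), an RNA polymerase I subunit gene. With the nearest start alone the count was 4 of the 31, while the share of all protein-coding genes was 2.98%. Nearer starts were those of zip-4 at the nol-58 site, T23F6.3 at the rbd-1 site and wip-1 at the larp-1 site. Mitochondrial ribosomal protein genes had sites at 7 of 70 (10.0%), led by mrps-35 at rank 14 and mrpl-18 at rank 45. The start of sws-1 (-42 bp) was nearer than that of mrps-35 (-114 bp), and that of C14B9.8 (-162 bp) nearer than that of mrpl-18 (-224 bp). At mrpl-34 (-328 bp), lid-1 (-82 bp) was nearer too. Another of the 7 was mrpl-49 at the rpl-28 peak. Neither ubq-2 nor rack-1 had a site, and their best pooled summits ranked 1532 and 3538.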

How the data were processed

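ChIP-seq of tagged CEH-90 was deposited as peak lists in narrowPeak format, and the 4 lists of build ce11 were used. Descriptions deposited beside the files state that replicate and pooled lists came from alignments and 1 control, and the optimal list from those lists. Aligner, peak caller and IDR threshold: not given in the sources used here. Signal per peak (column 7, scaling not stated) is the authors' own and was used to rank and describe peaks within a list. The deposited −log10 q-value (column 9) served only for the alternative of pooled peaks with q of 0.05 or less, 830 in number. Depth is unknown, and exact Clopper-Pearson intervals at 95% cover counting error over genes or peaks.

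Genes came from Ensembl release 115 (WBcel235), whose chromosome lengths hold all peaks, and sequence from the RefSeq copy of that assembly. Coordinates are 1-based. A gene's site is its strongest summit in the window of any annotated transcript start, noncoding genes being counted as neighbours by the same window. Summits matched within 100 bp. The upstream neighbour is the nearest protein-coding gene that does not overlap. The members, lists and 6-base words were chosen with earlier results of these data known, the 7-base words after seeing them, and no chance test was made. All members with a site are named, with the 5 next below the limit and those with no pooled summit. Window calls were checked on simulated summits at randomly drawn protein-coding genes with a single start. For matches between lists, the check was only that summits shifted by no more than 100 bp found a match. Work used Python 3.11.15, numpy 2.4.6, pandas 2.3.3, scipy 1.17.1 and matplotlib 3.10.9. The alternatives were windows of 500 or 2000 bp upstream, the nearest start alone, the 382 strongest peaks of the IDR list, the q limit, each replicate alone (its 765 strongest peaks), other match distances and other windows around the summit. The ce10 lists were not used.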

Additional observations from a re-analysis of the deposited data

How the results depend on the processing

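With the nearest protein-coding start alone, sites fell to 18 ribosomal genes, 6 of them small subunit, to 2.98% of all protein-coding genes and to 4 ribosome biogenesis genes, and the median pooled rank was 2013. The 382 strongest IDR peaks gave 18 ribosomal genes (9 large, 9 small) and 2.52% of all genes. Pooled peaks with q of 0.05 or less gave 32 ribosomal genes and 4.74% of all genes. Windows of 500 and 2000 bp upstream gave 29 and 33 ribosomal genes and 3.65% and 5.41% of all genes. The median position was -287 and -318 bp in these windows, and -292.5 bp with the nearest start alone or the 382 strongest peaks. One replicate at a time, the ribosomal count was 23 without replicate 1 and 34 without replicate 2 (4.35% and 4.42% of all genes). Large subunit genes were 12 to 18 and small subunit genes 11 to 16. The median position was then -305 to -304 bp, the median rank 789 to 1171 and mean GC 47.0 to 47.1%.

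Within 25 bp of the summit, 2 ribosomal peaks held a 6-base word and 11 a 7-base word (32.8% and 3.8% of other peaks at starts), and mean GC was 49.7%. Within 100 bp, 13 held a 6-base word (51.8% of the others), and GC was 41.4%. The settings for the 7-base words were added after seeing the data. In all, 38 of 62 values stayed near the main one, that is within 1.5 times for counts, the 95% interval for shares of genes, or 1 SD of the replicates' values for medians and GC. With replicate medians only 1 bp apart, that limit is tight for positions. Unknown depth limits the weakest sites, where the replicates agreed least.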
